A study of Mus musculus with 5 samples.

Results

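The SP family of transcription factors, Sp1 to Sp9, was examined in mouse embryonic stem (ES) cells that overexpress KLF5, by locating KLF5 on the genome with chromatin immunoprecipitation and sequencing (ChIP-seq). The members are the 9 genes of that name in the RefSeq table, and every V5-KLF5 peak whose summit, the highest point of the peak, lay inside one of these genes or within 20 kb of its ends was taken. These were 49 of the 45378 peaks in the list, and the 9 genes stood among 21887 protein-coding genes. KLF5 carried a V5 epitope tag and was overexpressed in wild-type ES cells from C57B6/J mice. The anti-V5 immunoprecipitate of these cells was set beside a normal mouse IgG immunoprecipitate of the same cells and an anti-V5 immunoprecipitate of wild-type ES-D3 cells, a standard mouse ES line that carries no tag, with input DNA from both. The run name in that control's file is JM8.N4, another mouse ES line, so which cells served is uncertain. The sources used here do not give what drives the tagged protein or whether the overexpressing cells are 1 clone. Each group was 1 library, so no difference below has a replicate check and no test was made between genes.

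SP proteins bind GC-rich DNA, the GC box and the related CACCC box, through zinc fingers at the end of the protein that closely resemble those of the KLF proteins, KLF5 among them. Sp1, Sp2 and Sp3 are expressed in most cell types, and Sp4, grouped with them here, is best known from neurons. Sp5 to Sp9 are developmental genes: Sp5 is a target of WNT signalling, Sp6 acts in tooth and skin, Sp7 encodes the osteoblast factor osterix, and Sp8 and Sp9 act in the limb and the forebrain. A peak list measures where tagged KLF5 was recovered with DNA and says nothing about the level of these genes' transcripts.

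The stretch before the start site shows how differently these genes begin, and it is the part of each locus for which sequence was at hand. RefSeq sequences of promoters (GRCm38.p6, the assembly that mm10 names) were found for 7 of the 9 genes and not for Sp6 and Sp7. The 250 bases before the start site are given 5′ to 3′ on the gene's strand for the 5 genes with a V5-KLF5 peak over a listed start region and for Sp9, which had none there. Capitals mark the words that stand for each kind of box. A GC box was counted wherever the letters GGGCGG occurred, and a CACCC box wherever GGGTGG did. Both were searched on both strands, so a word in capitals may be shown as its reverse complement.
Sp1, chr15:102406066-102406315, plus strand: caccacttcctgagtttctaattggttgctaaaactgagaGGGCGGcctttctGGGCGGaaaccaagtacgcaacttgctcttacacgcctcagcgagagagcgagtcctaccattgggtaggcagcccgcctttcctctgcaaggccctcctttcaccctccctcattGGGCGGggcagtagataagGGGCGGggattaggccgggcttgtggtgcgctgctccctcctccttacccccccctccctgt
Sp2, inner start, chr11:96977689-96977938, minus strand: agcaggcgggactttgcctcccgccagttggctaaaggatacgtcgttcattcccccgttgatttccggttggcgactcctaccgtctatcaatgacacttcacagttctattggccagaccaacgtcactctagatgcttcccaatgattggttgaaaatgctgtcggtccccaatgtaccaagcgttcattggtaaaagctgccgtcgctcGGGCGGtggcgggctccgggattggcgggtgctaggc
Sp3, outer start, chr2:72980447-72980696, minus strand: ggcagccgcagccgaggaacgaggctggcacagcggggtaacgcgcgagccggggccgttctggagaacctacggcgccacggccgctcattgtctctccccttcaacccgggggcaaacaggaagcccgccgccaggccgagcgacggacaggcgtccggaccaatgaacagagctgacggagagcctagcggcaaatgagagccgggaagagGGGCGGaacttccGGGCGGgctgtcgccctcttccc
Sp4, chr12:118301441-118301690, minus strand: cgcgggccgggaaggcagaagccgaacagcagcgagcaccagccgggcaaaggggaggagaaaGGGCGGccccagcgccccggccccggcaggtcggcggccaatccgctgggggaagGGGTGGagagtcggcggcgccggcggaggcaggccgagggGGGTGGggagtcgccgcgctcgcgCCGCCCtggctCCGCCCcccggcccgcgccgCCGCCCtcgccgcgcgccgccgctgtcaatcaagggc
Sp5, chr2:70474673-70474922, plus strand: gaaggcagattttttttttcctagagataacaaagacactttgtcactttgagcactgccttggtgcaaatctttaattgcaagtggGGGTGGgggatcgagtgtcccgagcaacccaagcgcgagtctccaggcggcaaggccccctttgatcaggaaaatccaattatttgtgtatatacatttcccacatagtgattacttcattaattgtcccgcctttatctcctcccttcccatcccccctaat
Sp9, chr2:73271676-73271925, plus strand: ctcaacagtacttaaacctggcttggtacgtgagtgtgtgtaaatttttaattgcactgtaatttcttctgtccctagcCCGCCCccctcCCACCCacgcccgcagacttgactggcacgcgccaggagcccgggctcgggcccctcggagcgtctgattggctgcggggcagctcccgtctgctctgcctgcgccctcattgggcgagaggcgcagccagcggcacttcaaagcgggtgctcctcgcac
The Sp1 stretch held 4 GC boxes and no CACCC box, and 233 of its 250 bases lay under a peak. That of Sp4 held 4 GC boxes and 2 CACCC boxes, at 80.0% G and C, and 80 bases lay under a peak. The Sp5 stretch lay under a peak over all 250 bases although it was 46.0% G and C and held no GC box and 1 CACCC box. The Sp9 stretch held 1 of each word at 62.4% G and C, and none of its bases lay under a peak. Thus neither word separated the printed stretches under a peak from the Sp9 stretch. Sp9 is the only printed stretch without a peak, so this cannot show whether the words go with peaks. It is also the only stretch of a member without a peak that held both words. The unprinted stretches without a peak, at Sp2 and Sp8, held 0 or 1 word each. The unprinted stretch at the inner start of Sp3, partly under a peak, held 5 GC boxes. Over all promoter windows in the RefSeq table, 72.5% of those overlapped by a peak held a GC box, against 17.0% of the others.

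Each of the 9 SP genes had 2 or more V5-KLF5 peaks inside it or within 20 kb. Of protein-coding genes, 59.6% had 2 or more and 74.7% had at least 1. The number ran from 2 at Sp4 to 12 at Sp1, with a median of 5.0 against 2.0 over all protein-coding genes. Per length of window the 9 genes had a median of 8.62 peaks per 100 kb, against 2.74 over all protein-coding genes. No peak was counted for more than 1 member, and neither control list held a peak in any of the 9 windows. The control lists are short, with 3 IgG peaks and 0 untagged peaks in the whole genome.

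Strength was read as the fold enrichment at the summit, the authors' ratio of (pileup + 1) to (input background + 1), where the pileup is the number of extended tags over that base. Of the 9 genes, 6 had a peak with a fold enrichment of at least 10 (Sp1, Sp2, Sp4, Sp5, Sp6 and Sp8), against 28.0% of protein-coding genes. Single peaks were ordinary in strength: their median fold enrichment was 5.12, against 5.18 over all peaks on assembled chromosomes, and 8 of the 49 (16.3%) reached 10, against 13.0% of all. Their median length of 423 bp was close to the 427 bp of all peaks. The SP genes other than Sp4 thus had more peaks than the median gene, also per length, while Sp4 had 2, the median number, and 1.82 per 100 kb.

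**Figure D1:**
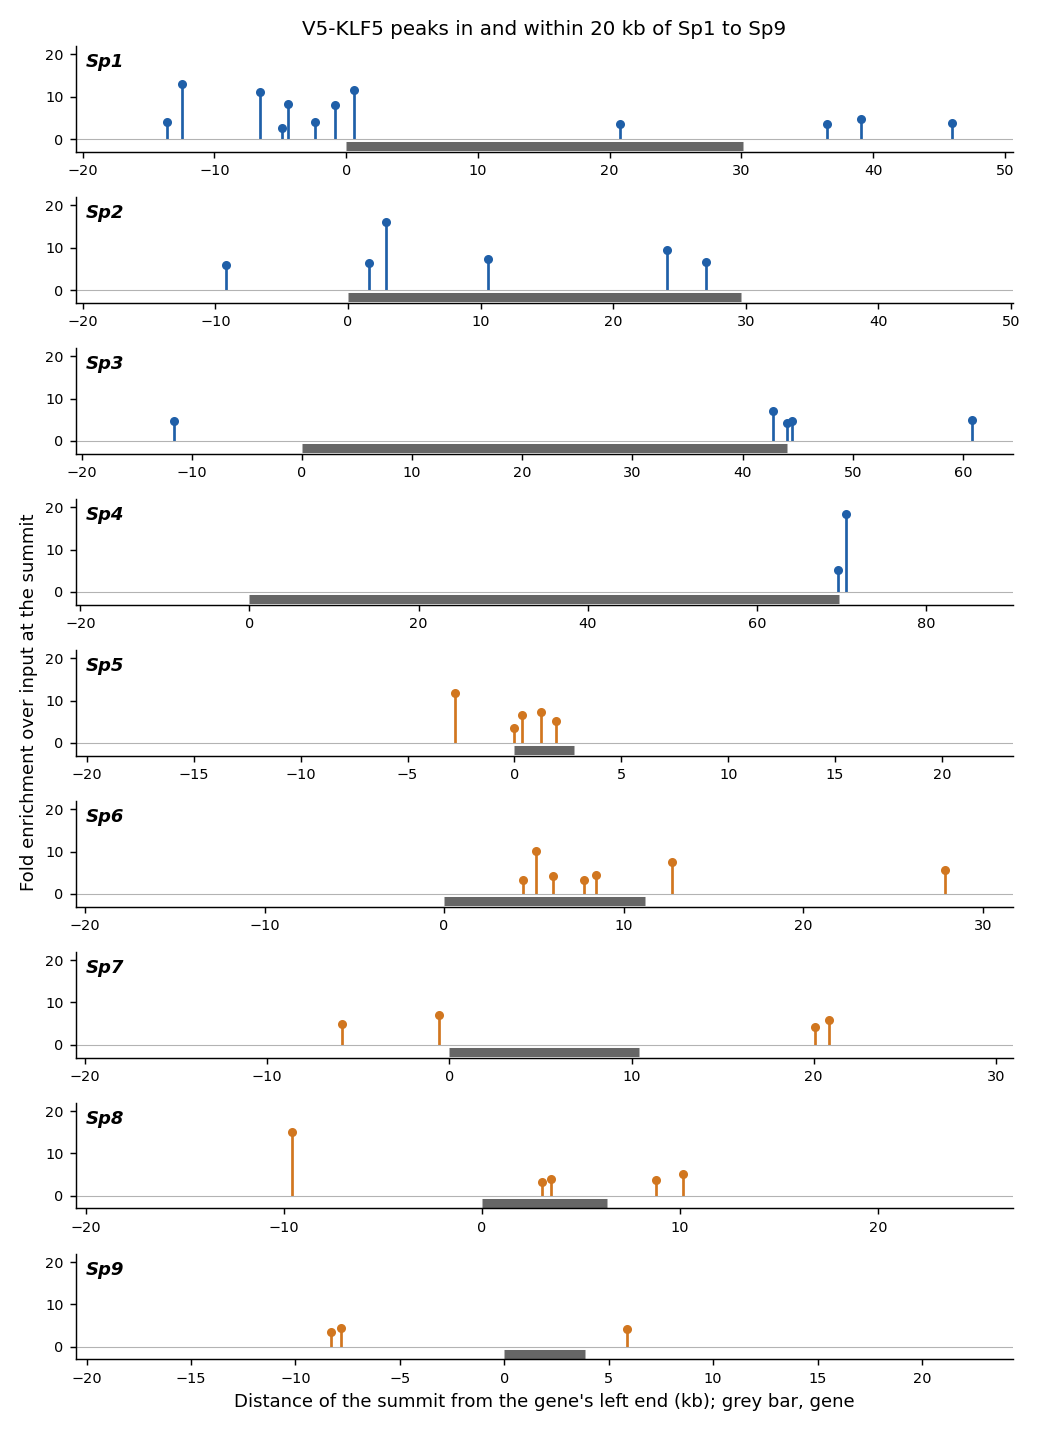
V5-KLF5 peaks at each SP gene. Each stem is a peak, placed by the distance of its summit from the left end of the gene (kb, grey bar for the gene, each panel with its own scale) with the fold enrichment over input as its height; blue, Sp1 to Sp4; orange, Sp5 to Sp9. Sp1 has 8 stems before and at its left end, and Sp4 has 2 stems at its right end and none along the gene.

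Sp1, the founding GC-box factor, lies on chromosome 15 at 102406316 to 102436404 and had the most peaks, 12. Only 2.25% of protein-coding genes had as many. Of these 12 peaks, 8 formed a run of 14.6 kb, from the start of the first to the end of the last. Its first summit lies 13600 bp before the start site, and its last peak lies inside the gene. The strongest of the run, at 102393445 to 102394359, had a fold enrichment of 13.0 with a summit 12431 bp upstream and a pileup of 62. The next, inside the gene 576 bp downstream of the start site, had 11.7. The peak with the highest pileup of the family, 80, lay 6553 bp upstream at 102398715 to 102400425, and its fold enrichment was 11.1. The other 5 peaks of the run had fold enrichments of 3.97, 2.65, 8.27, 3.98 and 8.07 in order along the chromosome. The peak nearest the start site on its upstream side had its summit at 886 bp, and the start site itself lay in the gap between that peak and the one inside the gene. The run thus mixed strong and weak peaks and did not fade evenly with distance from the gene.

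Input was raised under part of this run. The background that the input gave was 6.33 at the peak with a pileup of 80, 8.43 at the weakest peak and 6.13 at a peak 4399 bp upstream with a fold enrichment of 8.27. The 95th percentile over all peaks was 6.13, and 4 of the 12 Sp1 peaks were at or above it, against 1 of the other 37 peaks of the family, a peak of Sp6. The part of the raised input in these peaks was not tested. Without such peaks Sp1 to Sp4 together kept 21 of 25 peaks. The remaining Sp1 peaks were weak. One deep in the gene, 20809 bp downstream of the start site, had a fold enrichment of 3.50, and those beyond the gene had 3.57, 4.72 and 3.90. The last 3 were nearer to an end of Amhr2, which encodes the receptor of anti-Müllerian hormone, than to Sp1, and the summit of 4.72 lay 4 bp from a start site of Amhr2.

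Sp2 lies on chromosome 11 at 96953332 to 96982959, on the minus strand, so its right end holds the outermost start site. It had 6 peaks, 5 of them inside the gene. The strongest, at 96955772 to 96956688, had a fold enrichment of 16.0 and a pileup of 70, and its summit lay 2905 bp inside the left end, the far end from the start sites. It also lay within D030028A08Rik, a long non-coding RNA gene that overlaps this end of Sp2. A peak with 6.35 lay beside it, 1310 bp away.

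At the start sites of Sp2 the signal was on the inner one. The peak at 96977145 to 96977938 had a fold enrichment of 9.40, with its summit 268 bp downstream of the start site at 96977688, and it covered the whole Sp2 stretch printed above. The outermost start region and a further inner one, at 96968665, were under no peak. A peak of 6.57 lay 2634 bp upstream of the inner start, and one of 7.42 lay 10532 bp inside the left end. The only Sp2 peak outside the gene, with 5.89, had its summit 8 bp from a start site of D030028A08Rik.

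Sp3, which competes with Sp1 for GC boxes, lies on chromosome 2 at 72936430 to 72980446 on the minus strand and had 5 peaks, none with a fold enrichment of 10. Of these, 3 sat at its start sites. The peak at 72979014 to 72979433 had a fold enrichment of 7.13, 80 bp downstream of the inner start site. The peak at 72979858 to 72980555 had 4.24 with a summit 28 bp downstream of the outer start site, and the peak at 72980734 to 72981146 had 4.68, 507 bp upstream. The last 2 lay within Sp3os, a non-coding RNA gene that overlaps the start of Sp3. Peaks 11583 bp beyond the left end and 16792 bp beyond the right end had 4.64 and 4.87. The Sp3 start was thus covered broadly but at moderate strength.

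Sp4 lies on chromosome 12 at 118231686 to 118301440 on the minus strand. It is the longest of the 9 genes, with 69.8 kb, and had the fewest peaks, 2, both at its start. The strongest peak of the whole family was here, at 118301611 to 118302582, with a fold enrichment of 18.5, a pileup of 75 and a summit 754 bp upstream of the start site. Beside it a peak at 118301102 to 118301438 had 5.12, 177 bp downstream. Along the rest of the gene no peak was called, and the next summit beyond the window was 218566 bp away. By its strongest peak Sp4 was reached by 5.32% of protein-coding genes, but by its peaks per 100 kb, 1.82, by 61.3%.

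Sp5 lies on chromosome 2 at 70474923 to 70477726, a gene of 2.80 kb, and had 5 peaks, all within 2.8 kb of its ends. The strongest, at 70471717 to 70472577, had a fold enrichment of 11.7 and lay 2799 bp upstream of the start site. The weak peak over the start site, with the summit 5 bp upstream, had 3.42 from a pileup of 13. Inside the gene the fold enrichments were 6.59, 7.32 and 5.12, in order from the start. All 5 peaks stood on the genome-wide input background of 3.10, the lowest that MACS2 uses, so their fold enrichments would be understated if the local input was lower.

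Sp6 lies on chromosome 11 at 97013569 to 97024739 and had 7 peaks, the most among the developmental members. Of these, 5 lay inside the gene with fold enrichments of 3.22, 10.2, 4.15, 3.39 and 4.40 in order along the chromosome. The strongest was at 97018444 to 97018929, 5115 bp inside the left end. A peak of 7.45 stood 1512 bp beyond the right end, inside the non-coding RNA gene Gm11532. The last, with 5.54, stood 16752 bp from Sp6 and 91 bp from a start site of Mrpl10, which encodes a mitochondrial ribosomal protein.

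Sp7 lies on chromosome 15 at 102356603 to 102367035 and had 4 peaks, none inside the gene. The strongest, at 102355103 to 102356244, had a fold enrichment of 6.98 and a summit 586 bp beyond the left end. Those 9641 and 10406 bp beyond the right end had 4.15 and 5.86. The peak 5879 bp beyond the left end had 5.00 and stood 35 bp from a start site of Aaas, the gene of the nuclear pore protein aladin.

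Sp8 lies on chromosome 12 at 118846288 to 118852578 and had 5 peaks, of which 1 was strong. That peak, at 118836376 to 118837385, had a fold enrichment of 15.0 and a pileup of 65, with its summit 9608 bp beyond the left end, upstream of the gene. Inside the gene the peaks had 3.33 and 3.90, and beyond the right end 3.75 and 5.19. No summit lay within 1 kb of the 3 listed start sites, the nearest being 1736 bp away. Sp9 lies on chromosome 2 at 73271926 to 73275771 and had 3 peaks, with fold enrichments of 3.52 and 4.46 at 8284 and 7839 bp upstream and 4.25 at 2013 bp beyond the right end. Their pileups were 16, 18 and 17. Sp9 had the weakest strongest peak of the family, a level that 68.1% of protein-coding genes reached.

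In order of the strongest peak the genes were Sp4, Sp2, Sp8, Sp1, Sp5, Sp6, Sp3, Sp7 and Sp9, from 18.5 down to 4.46, a ratio of 4.16. With exact Poisson intervals of the pileup at 95%, on a fixed background, these ran from 14.6 to 23.2 at Sp4, from 10.0 to 16.6 at Sp1, from 4.92 to 10.0 at Sp3 and from 2.74 to 6.91 at Sp9. In all 8 pairs of neighbours in this order the intervals overlapped. Of the 36 pairs of genes, 15 did not overlap: Sp3, Sp7 and Sp9 each lay below Sp4, Sp2, Sp8 and Sp1, Sp9 also lay below Sp5 and Sp6, and Sp6 lay below Sp4. The upper limit of Sp3 and the lower limit of Sp1 are both 10.0 as printed, so that pair is apart by less than the rounding. These intervals cover counting error only, and a summit is the highest point of its peak, so its pileup is on the high side.

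**Figure D2:**
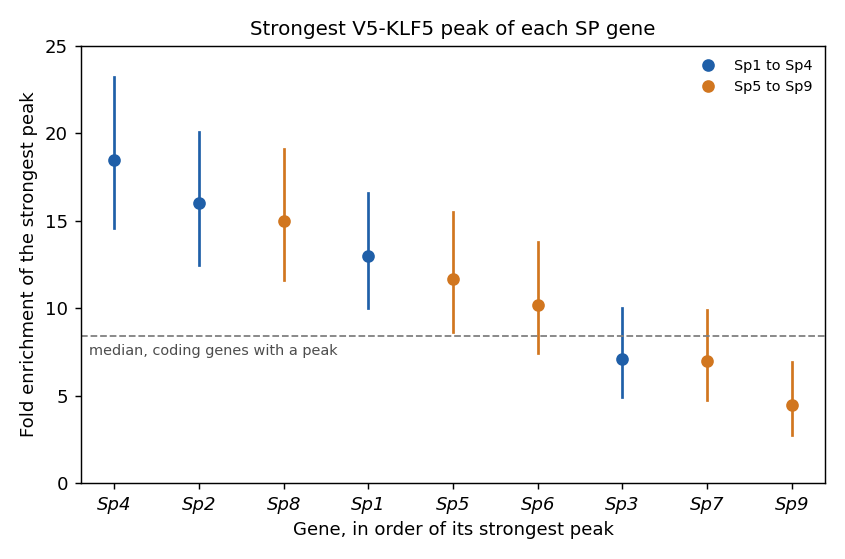
Strongest V5-KLF5 peak of each SP gene, in order. Points give the fold enrichment over input and bars its exact Poisson 95% interval (counting error only); the dashed line is the median of 8.41 over protein-coding genes with a peak. Blue (Sp1 to Sp4) and orange (Sp5 to Sp9) points are interleaved, and Sp3, Sp7 and Sp9 lie below the line.

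The ubiquitous genes Sp1 to Sp4 were set against the developmental genes Sp5 to Sp9. The groups did not separate in number or in strength. Sp1 to Sp4 had 25 peaks and Sp5 to Sp9 had 24, and 3 of 4 and 3 of 5 genes had a peak of at least 10. The median strongest peak was 14.5 (range 7.13 to 18.5) for Sp1 to Sp4 and 10.2 (range 4.46 to 15.0) for Sp5 to Sp9, so the ranges overlapped over most of their length. Both medians were above the 8.41 of protein-coding genes with a peak. A strongest peak is picked from all peaks of a gene, and the 9 SP genes had a median of 5.0 peaks against 2.0. The part of peak number in this difference was not tested.

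Per length the order was the other way round. Sp1 to Sp4 had 7.50 peaks per 100 kb of window and Sp5 to Sp9 had 10.2, a ratio of 0.733, over windows that total 333 and 235 kb. That order turned within 50 kb of the genes, where the ratio was 1.03, and for the stronger peaks, of 10 or more, where it was 1.17. It widened close to the genes, with a ratio of 0.483 within 10 kb and 0.199 inside the genes alone. Inside the genes each group had 10 peaks, over 173 kb of gene in Sp1 to Sp4 and 34.5 kb in Sp5 to Sp9. The ratio of 0.199 is thus that of the gene lengths, and Sp7 and Sp9 had no peak inside. Sp1 alone held 48.0% of the peaks of Sp1 to Sp4, and without it the other ubiquitous genes had 13 peaks, 4.94 per 100 kb.

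At the start sites the count was 4 of 4 ubiquitous genes and 1 of 3 developmental ones. Each of Sp1 to Sp4 had a summit within 1 kb of a listed start site, 576, 268, 28 and 177 bp away at the nearest, where 51.7% of protein-coding genes in the promoter table had one. Of the 3 developmental genes with a listed start site, Sp5 had one, 5 bp away, while the nearest were 1736 bp away at Sp8 and 5858 bp at Sp9. With 4 and 3 genes and 1 library this is a description. The start site was often not the strongest place: the strongest peak lay within 1 kb of a listed start site at Sp3 and Sp4, and at 2799 bp or more from one at Sp1, Sp2, Sp5, Sp8 and Sp9.

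The promoter windows, 250 bases before to 50 after each start site, gave a related count. A peak overlapped 6 of the 12 windows listed for members, against 33.7% of all 32851 windows in the table. That share includes windows of non-coding genes, whereas all members are protein-coding, so the sets are unlike. The member windows under a peak were those of Sp1, Sp4 and Sp5, 1 of 3 for Sp2 and both for Sp3. GC boxes numbered 4 in the window of Sp1, 2 in the covered window of Sp2, 5 and 2 at Sp3, 5 at Sp4 and 0 at Sp5. In the 6 uncovered windows there were 0 or 1, the 1 being in a window of Sp8 and in that of Sp9. Over the whole table, 72.5% of windows under a peak and 17.0% of the others held a GC box, with medians of 62.7% and 48.7% G and C. A CACCC box was in 40.3% and 27.0%, the longer word GGGNGGGGC, which can contain a GC box or a CACCC box, in 35.0% and 7.87%, and GGGTGTGGC in 2.14% and 0.945%. Among members GGGNGGGGC occurred once in the window of Sp1 and once at the inner start of Sp3, and GGGTGTGGC in none. At 45.0% G and C the Sp5 window was poorer than the other covered windows of members, and 1.29% of all windows under a peak were poorer still. These matches describe letters and base composition together, and which of them goes with a peak was not tested.

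**Figure D3:**
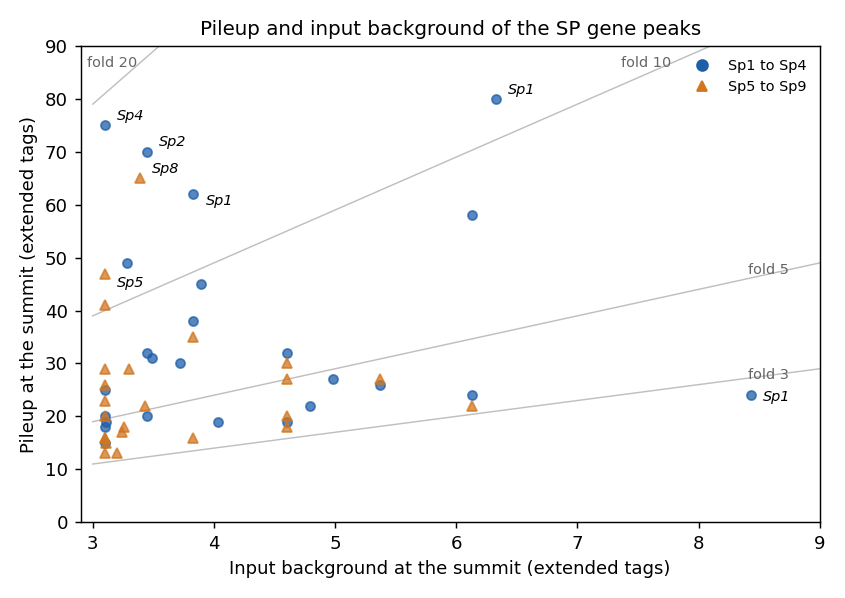
Pileup against input background at the summits of the 49 SP gene peaks, both in extended tags; circles, Sp1 to Sp4; triangles, Sp5 to Sp9; grey lines, equal fold enrichment. Most points lie between backgrounds of 3.10 and 5.37, while 4 Sp1 peaks and 1 Sp6 peak lie at 6.13 or above.

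Pileup and fold enrichment did not name the same leader. The Sp1 peak with the pileup of 80 stood on a background of 6.33 and had a fold enrichment of 11.1, whereas the Sp4 peak with 75 stood on 3.10 and had 18.5. Of the 49 peaks, 16 (32.7%) were within 0.01 of that lowest background, against 37.9% of all peaks. They made up 10 of 24 in Sp5 to Sp9 and 6 of 25 in Sp1 to Sp4.

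Several members are neighbours on a chromosome, and the gaps between them held very different numbers of summits. Sp7 and Sp1 lie side by side with 39.3 kb between them, and 9 summits filled that gap, 7 of them the upstream part of the Sp1 run and 2 in the window of Sp7. Sp2 and Sp6 lie 30.6 kb apart, and no summit was called between them, although Sp2 had 6 and Sp6 had 7 peaks. Between Sp4 and Sp8, 545 kb apart, there were 8 summits, and the strongest was the 18.5 at the start of Sp4. Between Sp3 and Sp9, 291 kb apart, there were 11. Per 100 kb of gap these were 22.9 summits between Sp7 and Sp1, 1.47 between Sp4 and Sp8 and 3.77 between Sp3 and Sp9.

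Around the edge of the 20 kb window, the members' outermost peaks inside it were at 16792 bp from Sp3 and 16752 bp from Sp6, with fold enrichments of 4.87 and 5.54. Just outside were a peak 22663 bp from Sp1 with 3.93 and one 23980 bp from Sp2 with 4.34. Of the 49 peaks, 43 were nearer to an end of their own member than to any other protein-coding gene. The other 6, among them the 3 near Amhr2 and those near Mrpl10 and Aaas, had fold enrichments of 3.57 to 5.89.

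The KLF genes, whose products share the SP type of zinc finger and include KLF5 itself, were described in the same way. All 17 of Klf1 to Klf17 had a peak within 20 kb and 13 had one of at least 10, with a median strongest peak of 13.9, against 11.7 for the 9 SP genes. Of their 89 peaks, 23 (25.8%) reached 10, against 16.3% of the SP gene peaks. The KLF genes with the strongest peaks were Klf10, a TGF-beta-inducible repressor, with 29.5, Klf11 with 22.2, Klf9 with 21.0 and Klf3 with 20.4, all above the strongest of the SP genes. Klf9 had as many peaks as Sp1, 12. Pooled per 100 kb, the KLF genes had 5.62 peaks and the SP genes 8.63, over windows that total 1580 and 568 kb. In such a pooled value long genes weigh most. Single KLF genes ran from 1.09 per 100 kb at Klf12, with a window of 460 kb, to 17.9 at Klf9. Single SP genes ran from 1.82 at Sp4 to 17.1 at Sp1, so the pooled difference does not hold gene by gene. Of 5 other genes for zinc-finger factors of GC-rich sites, Egr1 to Egr4 and Wt1, all had a peak and 1 reached 10. The strongest peaks were 18.8 at Egr3, 8.05 at Wt1, 6.79 at Egr1, 6.07 at Egr2 and 5.71 at Egr4. Of the ES cell genes Pou5f1, Nanog, Sox2, Esrrb and Zfp42, all 5 had a peak and 3 reached 10, with a median strongest peak of 23.2 and with 8.07 at Sox2 and 8.93 at Zfp42. The difference between these lists was not tested.

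**Figure D4:**
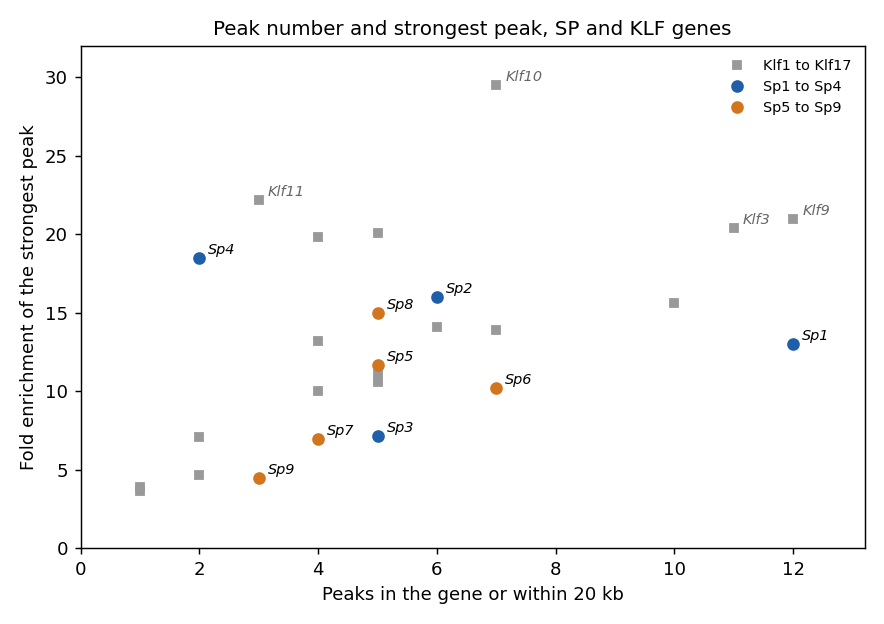
Number of peaks in the gene or within 20 kb (horizontal) and fold enrichment of the strongest peak (vertical) for the 9 SP genes (blue, Sp1 to Sp4; orange, Sp5 to Sp9) and Klf1 to Klf17 (grey squares). The SP genes lie within the spread of the KLF genes, with Sp4 at 2 peaks and 18.5 and Sp1 at 12 peaks and 13.0.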

How the data were processed

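Peak lists of 3 immunoprecipitates were used, in mm10 coordinates, 1-based. Per the file headers, MACS2 2.1.0.20140616 called peaks on single libraries against the input of the same cells, with 51 bp tags extended to 250 bp, 1 tag per position, an effective genome size of 1.87 Gb and a q-value cutoff of 0.05. Bowtie 0.12.8 is named in the submitters' processing notes. The anti-V5 library of the V5-KLF5 cells kept 23.2 M (mega) of 28.8 M tags, the IgG library 24.5 M, the untagged library 21.8 M, and the inputs 30.2 M and 22.1 M.

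For each peak the authors deposited the pileup signal at the summit, the fold enrichment (a ratio), and −log10 values of the p-value and of the q-value. From these the input background was computed as (pileup + 1) / fold enrichment − 1. Genes were matched by symbol, not synonym, to the RefSeq table of GRCm38.p6, which found all 9, and peaks on assembled chromosomes were assigned by summit. The table has no strand, so start sites and strand came from the RefSeq promoter table. All members and every peak in their windows are named, as are the 4 KLF genes with the strongest peaks. Of the Egr and Wt1 list all 5 are given, where the rule asked for 4. No genome sequence was used here, so sequence under peaks was read only where promoters overlap them. No protein sequence was used here.

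With 1 library per group there is no test and no p-value. Intervals are exact Poisson intervals at 95% (scipy 1.17.1). Window counts and word searches were tested on simulated data. The members and lists were chosen with earlier results of these data known. Analyses used Python 3.11.15, pandas 2.3.3, numpy 2.4.6 and matplotlib 3.10.9.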

Additional observations from a re-analysis of the deposited data

How the results depend on the processing

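The number of members with a peak, and for Sp1 to Sp4 and Sp5 to Sp9 the number of peaks, the peaks per 100 kb and the median strongest peak, were recomputed under 11 alternatives. The ratio of the medians was recomputed under 13, which add the pileup and the −log10 q as measures. Leaving out peaks on an input background at or above the 95th percentile was chosen after the data were seen. The counts at start sites, promoter windows and gaps, the order of single genes and the KLF, Egr and ES cell lists were not recomputed. The median strongest peak of Sp1 to Sp4 stayed above that of Sp5 to Sp9 in all 13, with ratios from 1.24 to 2.03 (1.41 as reported). Several of the 13 are no separate check, since they left both medians, 14.5 and 10.2, as they were. These were any overlap, the whole peak inside, the nearest gene only, a −log10 q of at least 5 and the background limit. Other settings dropped members from the medians, so they did not compare the same genes. A −log10 q of at least 10 and a fold enrichment of at least 5 each left 8 members. Gene bodies left 7, and a fold enrichment of at least 10 left 6. Peaks per 100 kb were lower in Sp1 to Sp4 in 9 of 11, with a lowest ratio of 0.199 in gene bodies alone, where each group had 10 peaks. The ratio turned to 1.03 within 50 kb and to 1.17 for fold enrichments of 10 or more, and was 0.483 within 10 kb.

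Counts moved with the window and the threshold, since these set how many peaks remain. For Sp1 to Sp4 and Sp5 to Sp9 in turn there were 44 and 40 peaks within 50 kb, 10 and 10 in gene bodies, 13 and 10 at a −log10 q of at least 10, 14 and 11 at a fold enrichment of 5 or more, and 5 and 3 at 10 or more. Per 100 kb these were 3.90 and 4.26 at the −log10 q of 10, 4.20 and 4.69 at a fold enrichment of 5, and 1.50 and 1.28 at 10. For Sp5 to Sp9 the density was 16.4 within 10 kb and 28.9 in gene bodies. In gene bodies the median strongest peak of Sp1 to Sp4 was 9.41. The number of members with a peak was 9 in 7 of the 11 alternatives that bear on it, 8 at a −log10 q of at least 10 and at a fold enrichment of 5 or more, 7 in gene bodies and 6 at 10 or more. For 10 or more the share of all protein-coding genes was 28.0%. It was not computed for the other alternatives, so whether those counts stand out cannot be told. No paired analysis was possible because each group has 1 library. A peak below the calling threshold, and control signal below it, cannot be seen in these lists.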
